A study of Homo sapiens with 6 samples.

Results

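The cytokines described here were chosen by name from secreted factors that tumour cells make: the IL6 family members *IL6*, *IL11* and *LIF*, the IL1 family members *IL1A* and *IL1B*, the cytokines *IL24* and *IL32*, and the colony-stimulating factors *CSF1*, *CSF2* and *CSF3*. Of these 10 genes, 9 had a probe set named in the array's annotation, among 21448 probe sets in all, and each of the 9 had 1 probe set. *CSF2* was not analysed here. The RNA came from the human triple-negative breast cancer line MDA-MB-231, 24 h after transfection. On 3 arrays the cells overexpressed *circAAGAB*, a circular RNA of *AAGAB* exons, from the plasmid pCIRC2T7-*circAAGAB*, and 3 arrays of the control plasmid, called empty vector, were the comparison. All 6 arrays share the cell line and the transfection reagent, so nothing was measured in untransfected cells. The methods speak in general of independent experiments behind the quantitative data, but neither they nor the labels say whether the arrays of a group stand for separate cultures. If they do not, the p-values measure only the spread between these arrays, which may be technical. Where values of single arrays are given, they stand in the order of replicates 1, 2 and 3.

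IL6, IL11 and LIF signal through receptor complexes that share the subunit gp130 (*IL6ST*), which activate JAK kinases and the transcription factor STAT3. IL1 alpha and IL1 beta act on the receptor *IL1R1* with its partner *IL1RAP*, recruit MYD88 and activate NF-kB, which in turn induces *IL6* and the colony-stimulating factor genes in many cells. IL24, first found in differentiating melanoma cells, belongs to the IL10 family, signals through pairs of the chains IL20RA, IL20RB and IL22RA1, and is known for causing death of tumour cells. MDA-MB-231 cells are known to secrete IL6 and other inflammatory cytokines.

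To show the regulatory sequence in front of these genes, the 250 bases before the annotated start site are printed for the members with a promoter window and a signal above the gauge of background explained below. Sequences are from RefSeq, build GRCh38.p14, read 5′ to 3′ on the strand of the gene. Of the 9 genes, 6 had a window, and *LIF*, *CSF1* and *CSF3* are named only. The first line, *IL24* at chr1:206897193-206897442 (plus strand), is the member with the largest difference between the groups, and *IL6* at chr7:22726950-22727199 (plus strand) had the next largest difference. *IL11* at chr19:55370464-55370713 (minus strand) and the more upstream of both windows of *IL32* at chr16:3065153-3065402 (plus strand) varied mainly with the replicate number of the arrays. Capitals mark matches to the motifs described in the next paragraph.
IL24: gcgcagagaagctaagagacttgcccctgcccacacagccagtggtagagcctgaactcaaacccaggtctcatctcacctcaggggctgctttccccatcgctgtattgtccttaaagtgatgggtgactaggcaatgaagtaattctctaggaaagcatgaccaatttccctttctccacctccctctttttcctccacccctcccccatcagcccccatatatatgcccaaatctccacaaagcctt
IL6: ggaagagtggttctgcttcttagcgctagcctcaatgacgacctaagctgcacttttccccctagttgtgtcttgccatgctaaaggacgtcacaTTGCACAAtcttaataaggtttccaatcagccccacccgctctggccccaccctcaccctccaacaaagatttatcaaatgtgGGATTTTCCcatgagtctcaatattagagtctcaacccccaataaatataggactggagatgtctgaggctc
IL11: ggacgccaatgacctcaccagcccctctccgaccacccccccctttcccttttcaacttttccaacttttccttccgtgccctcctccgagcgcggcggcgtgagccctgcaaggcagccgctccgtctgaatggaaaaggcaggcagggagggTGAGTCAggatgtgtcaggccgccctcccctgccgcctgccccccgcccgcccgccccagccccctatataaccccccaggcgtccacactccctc
IL32: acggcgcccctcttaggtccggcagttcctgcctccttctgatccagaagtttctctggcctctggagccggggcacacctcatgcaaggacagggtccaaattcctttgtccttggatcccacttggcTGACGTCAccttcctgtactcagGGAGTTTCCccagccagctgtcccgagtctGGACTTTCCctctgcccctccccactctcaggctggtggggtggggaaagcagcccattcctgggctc

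The windows of 300 bases, 250 before and 50 after the start, were searched on both strands for TGANTCA (AP-1), TGACGTCA (cyclic AMP response element, CRE), GGNNTTTCC (a form of the NF-kB site), TTGCNNAA (a form of the C/EBP site), GCGNGGGCG (EGR1) and TATAAA (the TATA box). Among 35116 windows of all genes in the table, these were present in 7.71%, 1.85%, 6.26%, 10.5%, 9.43% and 11.5%, in the same order. *IL24* held none of the 6 motifs. *IL6* held GGATTTTCC, position -72, and TTGCACAA, position -155 relative to the start site. *IL11* held TGAGTCA, position -96. *IL32* held TGACGTCA, position -121, GGAGTTTCC, position -98, and GGACTTTCC, position -68. In the windows not printed, *IL1A* held TGACTCA and TGAGTCA in both of its overlapping windows and TATAAA in one of them, the downstream window of *IL32* held none, and *IL1B* held TTGCAAAA, position -215. No window of these genes held GCGNGGGCG. The matches of different motifs did not overlap. A match describes letters only and is no measurement of a factor's binding.

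Values are log2 signals after robust multichip averaging (RMA), as the authors deposited them. The medians of the arrays lay between 5.70 and 5.80. Values of different probe sets are not on 1 scale, so no cytokine's signal is set against another's. The gauge of background and the summed marker signals below do use different probe sets together and are therefore rough. The deposited values carry no detection calls. Olfactory receptor genes, which this cell type should not use, gave a gauge of background: 95% of 348 such genes had a mean signal below 4.65. Above it were 7 of the 9 cytokines and 68.43% of all probe sets, while *IL1A* and *IL1B* lay below. *AAGAB*, from which the plasmid takes its exons, was 3.61 higher with *circAAGAB* overexpression (log2, adjusted p = 0.0032 from limma); its probe set does not tell circular from linear RNA or plasmid from host. All 11 markers of MDA-MB-231 cells lay above the gauge. The luminal genes *ESR1*, *PGR*, *FOXA1* and *CDH1* lay below it, while *GATA3*, *EPCAM* and *KRT19* lay above. Below it were also the pan-leukocyte gene *PTPRC* and the T cell genes *CD3E* and *CD3D*, and 4 of 10 blood cell markers lay above it, *CD68*, *CD14*, *CD163* and *LYZ*. Of 9 fibroblast and stroma markers, 4 lay above it, *COL1A1*, *COL1A2*, *PDGFRA* and *VWF*. The log2 of the summed signal, with the empty vector against *circAAGAB* overexpression, was 9.28 to 9.58 against 9.33 to 9.59 for the blood cell markers and 8.62 to 8.82 against 8.45 to 9.08 for the fibroblast and stroma markers. For the luminal markers it was 10.01 to 10.33 against 9.81 to 10.38, and for those of MDA-MB-231 cells 13.64 to 13.75 against 13.67 to 13.71. The ranges overlapped in all 4 sets. The brightest marker weighs most in such a sum, *CD68* (mean 8.9) for blood cells and *KRT19* (mean 9.5) for the luminal set. The overlap therefore says little of the dimmer markers. Markers measured were 11 of MDA-MB-231 cells, 7 luminal, 10 of blood cells and 9 of fibroblasts and stroma. Of these markers, 3 did not overlap between the groups. Over all probe sets, 3.87% did not overlap with *circAAGAB* higher and 4.04% with *circAAGAB* lower. *PDGFRA* was higher with *circAAGAB* overexpression by 0.40 (unadjusted p = 0.0426), and *AXL* and *MSN* of the MDA-MB-231 set had differences of -0.33 (unadjusted p = 0.0425) and -0.24 (unadjusted p = 0.125), each with an adjusted p of 1.00 (limma). The part of these markers in the cytokines' values was not tested.

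*IL24* was the cytokine with the largest difference. Its signal was 6.30, 6.36 and 5.96 on the empty vector arrays (6.21 ± 0.21, SD, n = 3) and 6.76, 6.85 and 6.68 on the *circAAGAB* arrays (6.76 ± 0.08, SD, n = 3). All 3 *circAAGAB* arrays lay above all 3 empty vector arrays, which held for no other of the 9 genes. The difference, *circAAGAB* overexpression minus empty vector, was 0.55 on the log2 scale (1.47-fold, standard error 0.16, 95% interval 0.18 to 0.92). It had an unadjusted p of 0.00856 and an adjusted p of 1.00 over all probe sets (limma, two-sided, Benjamini-Hochberg), so it did not pass. Within the replicate numbers 1, 2 and 3 the difference was 0.45, 0.49 and 0.72. With the replicate number as a block the unadjusted p was 0.00334 and the adjusted p 0.724, and 6.79% of all probe sets then had an unadjusted p under 0.05. Without *circAAGAB* replicate 3 the difference of *IL24* was 0.59, and without empty vector replicate 1 or 2 it was 0.60 and 0.63. These values were past 1.5-fold with an unadjusted p under 0.05 (limma). The share of all probe sets that passed both in these settings is not given here. Without empty vector replicate 3, the lowest of all 6 arrays, the difference of *IL24* was 0.43 (unadjusted p = 0.0427).

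Across the 9 cytokines, 1 gene, *IL24*, had an unadjusted p under 0.05, where 2.18% of all probe sets did. None had an adjusted p under 0.05, which 1 probe set, that of *AAGAB*, had in the whole table (0.00466%). None reached a fold change of 1.5 together with an unadjusted p under 0.05, which 0.373% of all probe sets reached, *AAGAB* included. Non-overlap with *circAAGAB* higher was seen in 1 of 9, against 3.87% of all probe sets, and with *circAAGAB* lower in 0 of 9, against 4.04%. The mean was higher with *circAAGAB* overexpression for 6 of the 9 genes, against 49.6% of all probe sets. This count was not stable: leaving out 1 array gave between 4 and 8 of the 9. The median difference of the 9 genes was 0.04 and that of all probe sets -0.0017.

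**Figure D1:**
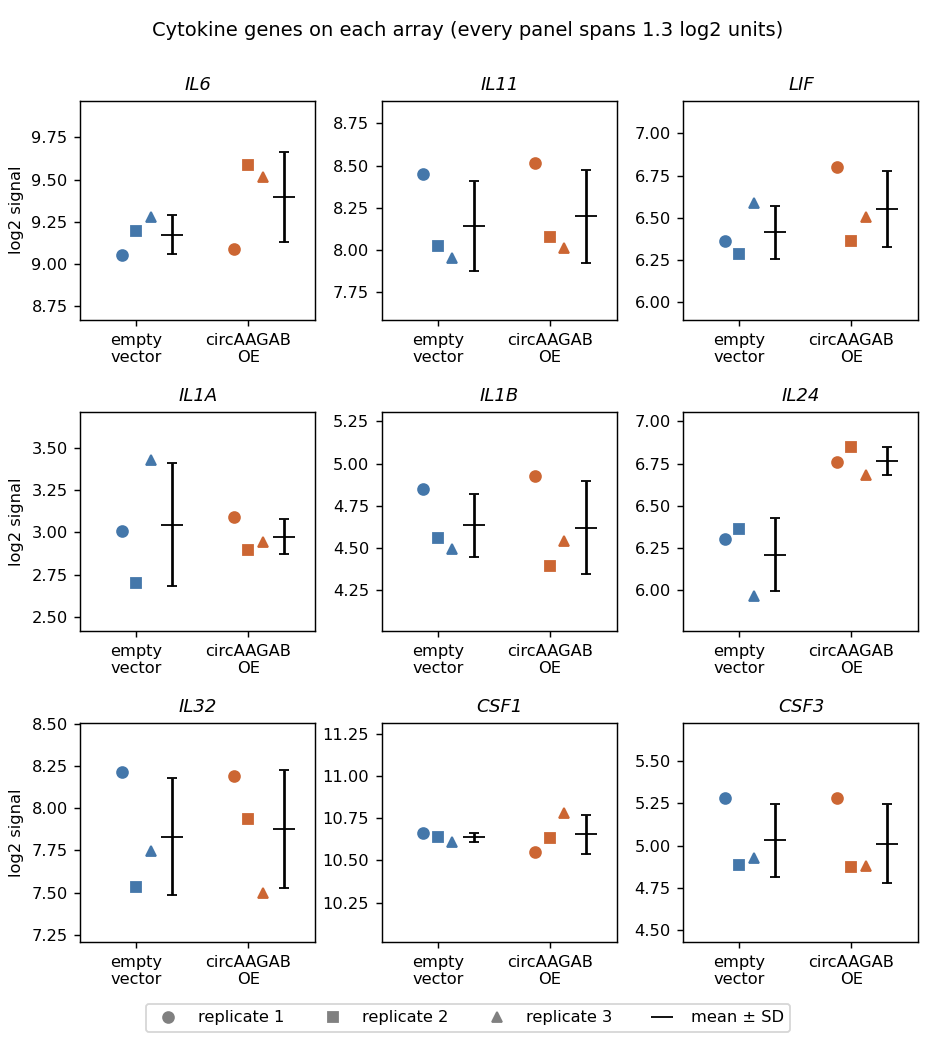
Signal (log2) of each of the 9 cytokine genes on each array, empty vector in blue and *circAAGAB* overexpression (OE) in orange, with the replicate number as the shape of the point and the mean ± SD (n = 3) in black; every panel spans the same number of log2 units. *IL24* is the panel in which the groups do not overlap, while in *IL11*, *IL1B*, *IL32* and *CSF3* both arrays of replicate 1 lie above the other 4.

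*IL6*, the founding member of its family and an activator of STAT3, was at 9.05, 9.19 and 9.28 with the empty vector (9.17 ± 0.11, SD, n = 3) and at 9.09, 9.58 and 9.52 with *circAAGAB* overexpression (9.40 ± 0.27, SD, n = 3). The *circAAGAB* arrays of replicates 2 and 3 lay above all empty vector arrays, and that of replicate 1 lay below empty vector replicates 2 and 3, so the groups overlapped. The difference was 0.22 (standard error 0.18, 95% interval -0.18 to 0.63, adjusted p = 1.00, limma). Without *circAAGAB* replicate 1 it was 0.38 with an unadjusted p of 0.0326 and an adjusted p of 0.586, its largest value in any setting. Without *circAAGAB* replicate 2 or 3 it was 0.13 and 0.16 (unadjusted p = 0.533 and 0.456, limma). Without both arrays of replicate 1, on which *IL6* was low, it was 0.31 (unadjusted p = 0.0524, limma). *LIF*, which acts through LIFR and gp130, was at 6.36, 6.29 and 6.59 with the empty vector and at 6.80, 6.36 and 6.50 with *circAAGAB* overexpression. Only *circAAGAB* replicate 1 lay above all empty vector arrays, and the difference was 0.14 (95% interval -0.25 to 0.54).

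*IL11*, a gp130 cytokine linked to bone metastasis of breast cancer, was at 8.45, 8.03 and 7.95 with the empty vector and at 8.52, 8.08 and 8.01 with *circAAGAB* overexpression. The groups overlapped, and each *circAAGAB* array lay 0.05 to 0.07 above the empty vector array of its number. The difference was 0.06 (95% interval -0.41 to 0.53, adjusted p = 1.00, limma).

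*IL1B*, the secreted form of IL1 that needs cleavage by caspase 1, was at 4.85, 4.56 and 4.49 with the empty vector and at 4.92, 4.39 and 4.54 with *circAAGAB* overexpression, on both sides of the gauge. *IL1A*, which is active without that cleavage, was at 3.01, 2.70 and 3.43 against 3.09, 2.89 and 2.94. Both groups overlapped in both genes. The differences were -0.01 (95% interval -0.45 to 0.42) for *IL1B* and -0.07 (95% interval -0.54 to 0.39) for *IL1A*, and for probe sets this dim a difference in RNA may be understated.

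*IL32*, a proinflammatory cytokine induced by NF-kB, was at 8.21, 7.54 and 7.74 with the empty vector and at 8.19, 7.94 and 7.50 with *circAAGAB* overexpression. The groups covered almost the same range, and the difference was 0.04 (95% interval -0.51 to 0.59). *CSF1*, the growth factor of macrophages, was at 10.66, 10.64 and 10.61 against 10.55, 10.63 and 10.78. Its 6 arrays lay within 0.24 of each other, the narrowest range of the 9 genes, and the difference was 0.02 (95% interval -0.30 to 0.34). *CSF3*, which encodes the granulocyte factor G-CSF, was at 5.28, 4.88 and 4.93 against 5.28, 4.87 and 4.88. Each array lay within 0.05 of its counterpart of the same number, and the difference was -0.02 (95% interval -0.44 to 0.40). For *IL32*, *CSF1* and *CSF3* the adjusted p was 1.00 (limma). For 6 of the 9 genes, all but *IL24*, *IL6* and *IL32*, the interval lies inside a 1.5-fold change in either direction. With the replicate number as a block this held for 8 of the 9. The block interval was -0.08 to 0.52 for *IL6*, -0.33 to 0.42 for *IL32* and 0.27 to 0.84 for *IL24*. Both counts include *IL1A* and *IL1B*, which lay below the gauge. A difference in their RNA may be understated, so their intervals do not bound it. The share of all probe sets with such intervals is not given here.

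**Figure D2:**
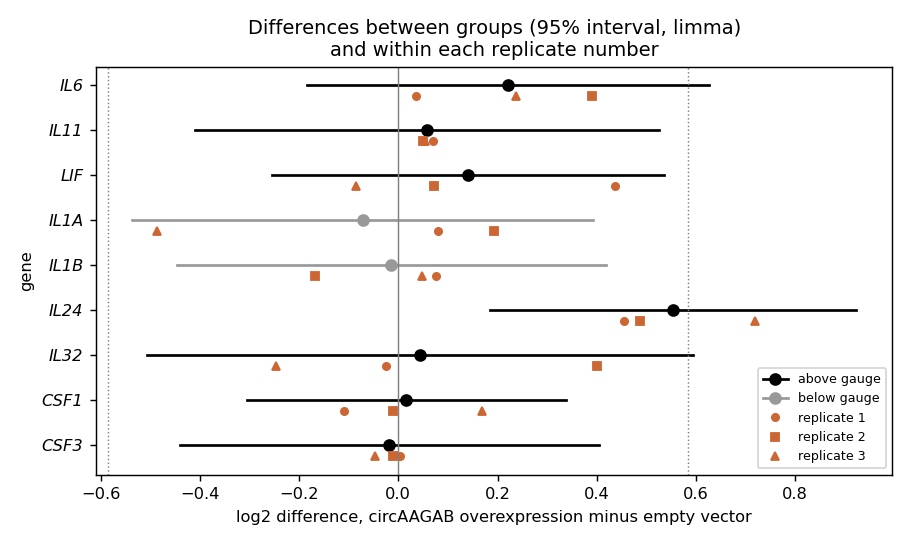
Difference between the groups for each cytokine gene (log2, *circAAGAB* overexpression minus empty vector; point and line, limma estimate and 95% interval, grey where the signal lay below the gauge), with the difference within each replicate number in orange and dotted lines at a 1.5-fold change. Only the interval of *IL24*, 0.18 to 0.92, leaves out 0.

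In 8 of the 9 genes, all but *IL24*, more of the spread went with the replicate number in the labels, on 2 degrees of freedom, than with the group, on 1, which held for 82.3% of all probe sets. Of the sum of squares over the 6 arrays, the replicate number held 99.4% for *CSF3*, 98.3% for *IL11*, 91.9% for *IL1B* and 77.3% for *IL32*, against 64.5% for all probe sets together. The other 5 genes lay below that share, *IL6* at 56.7%, *IL1A* at 52.5%, *LIF* at 43.6%, *CSF1* at 32.9% and *IL24* at 15.1%. The group held 81.3% for *IL24*, 30.3% for *IL6* and 16.5% for *LIF*, against 12.9% for all probe sets, and below 3% for the other 6 genes. Both arrays of replicate 1 lay above the other 4 in 4 of the 9 genes, *IL11*, *IL1B*, *IL32* and *CSF3*, against 26.1% of all probe sets. They lay below the other 4 in 1, *IL6*, against 19.5% of all probe sets. For *IL11* the mean of the replicate 1 arrays was 0.47 above that of replicates 2 and 3, for *IL32* 0.52, for *IL1B* and *CSF3* 0.39, and for *IL6* it was -0.32 from it; the median size of this shift over all probe sets was 0.27. No source used here says what the number marks, and its part in the cytokines' values was not tested.

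**Figure D3:**
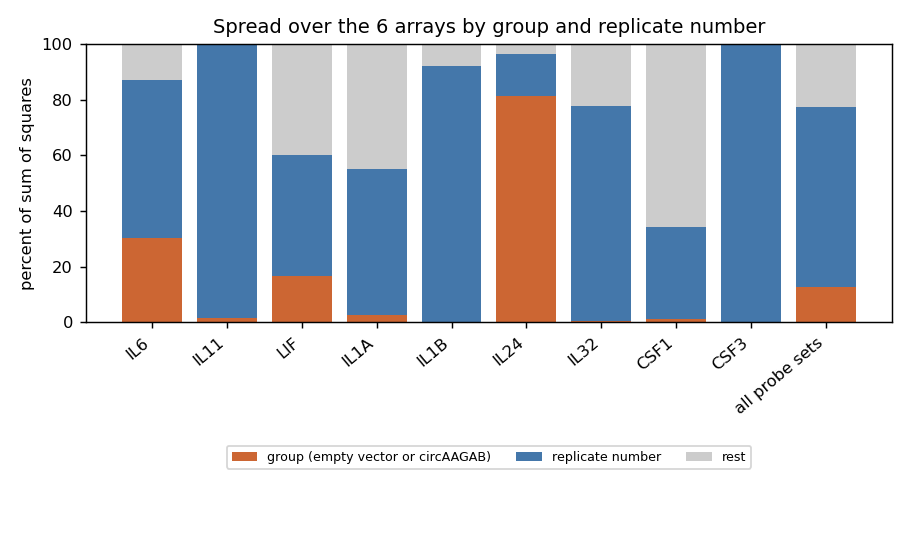
Share of the sum of squares over the 6 arrays (percent) that goes with the group, with the replicate number and with the rest, for each cytokine gene and for all 21448 probe sets together. *IL24* is the gene in which the group holds the largest share, 81.3%, and in *IL11* and *CSF3* nearly all of it goes with the replicate number.

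Receptors, other ligands and signal transducers of these cytokines were taken from a list of 94 genes, of which 85 had a named probe set. Of these, 41 were higher and 44 lower with *circAAGAB* overexpression, with a median difference of -0.0003, and none passed the adjusted test (limma). An unadjusted p under 0.05 was seen for 2, against 2.18% of all probe sets. *IL22RA1*, a chain of the receptors of IL24, IL20 and IL22, was at 5.53, 5.37 and 5.57 with the empty vector and at 5.87, 5.85 and 5.84 with *circAAGAB* overexpression. No array of one group reached the range of the other. With *circAAGAB* higher, this held for 1 of the 85 genes, against 3.87% of all probe sets. The difference of *IL22RA1* was 0.36 (standard error 0.14, 95% interval 0.04 to 0.68, unadjusted p = 0.0307, adjusted p = 1.00, limma). *IL1RL2*, the receptor of the IL36 cytokines, was lower by the same test, at 3.16 ± 0.15 against 3.60 ± 0.08 (SD, n = 3), a difference of -0.44 (adjusted p = 1.00), but lay below the gauge.

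The other receptor chains of IL24 overlapped between the groups: *IL20RB*, near the gauge, had a difference of 0.05 and *IL20RA*, below the gauge, one of 0.02. The neighbours of *IL24* in the gene order of GRCh38.p14, the related cytokine genes *IL19* and *IL20* on one side and *FCMR* and *PIGR* on the other, were looked at after its value was seen. *IL19*, *IL20* and *FCMR* lay below the gauge, with differences of -0.02, 0.15 and -0.22, and *PIGR* had a difference of -0.23; in all of these the groups overlapped.

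Among the 8 receptors of the IL6 family, 4 were higher and 4 lower. *IL6ST*, the shared gp130 chain, was at 8.29, 8.94 and 9.35 with the empty vector and at 8.45, 8.83 and 9.47 with *circAAGAB* overexpression. It was lowest on the arrays of replicate 1 in both groups, with a difference of 0.06 (95% interval -0.70 to 0.81). *IL6R*, *OSMR* and *LIFR* had differences of 0.06, -0.00258 and -0.12, and *IL27RA*, the receptor chain of IL27, had one of -0.24 with no overlap of the groups (adjusted p = 1.00, limma).

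Of the JAK kinases and STAT factors on the list, not all of which act downstream of gp130, 7 were measured. Of these, 1 was higher and 6 lower, among them *STAT3* with a difference of only -0.0002. *JAK2* had the largest difference of these, 0.33 (95% interval -0.32 to 0.98), and *STAT3* was at 8.14, 8.14 and 8.10 against 8.02, 8.30 and 8.07. *SOCS3*, the feedback inhibitor that STAT3 induces, had a difference of 0.12 (95% interval -0.41 to 0.65) and *PTPN11*, a phosphatase bound by gp130, one of -0.30. Of 12 other genes that STAT3 can induce, 8 were higher and 4 lower, with a median of 0.01, where 49.6% of all probe sets were higher. Only 8 of the 12 lay above the gauge, and both counts include genes below it. *JUNB*, which many other signals induce as well, had the largest difference among those above the gauge, 0.29 (95% interval -0.10 to 0.69). *STAT5B* at -0.32 and *PIAS3*, an inhibitor of STAT3, at -0.10 were, with *IL1RL2* and *IL27RA*, the 4 genes of the list that were lower without overlap, against 4.04% of all probe sets, and both are named because of this. No gene of these groups passed the adjusted test (limma), and the arrays measure RNA, not phosphorylation.

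On the side of IL1, *IL1R1*, the signalling receptor, had a difference of 0.02 and *IL1RN*, the receptor antagonist, 0.02. *IL1RAP*, the partner chain, was at 5.15, 5.54 and 5.98 with the empty vector and at 5.42, 5.93 and 6.32 with *circAAGAB* overexpression. Within each replicate number it was higher with *circAAGAB*, and the groups overlapped. Its difference was 0.33, with an unadjusted p of 0.272, and of 0.0231 with the replicate number as a block (adjusted p = 0.724, limma). *IL18*, another IL1 family cytokine, had a difference of 0.33 (95% interval -0.23 to 0.88), and *TOLLIP*, an inhibitor of IL1 signalling, one of 0.13. The 12 genes of processing and signal transduction lay between -0.11 and 0.16, with 6 on each side. *CSF1R*, the receptor of CSF1, had a difference of 0.21 (95% interval -0.16 to 0.59), and *IL27*, a further ligand of the IL6 family, one of -0.22. None of the genes of this paragraph passed the adjusted test.

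**Figure D4:**
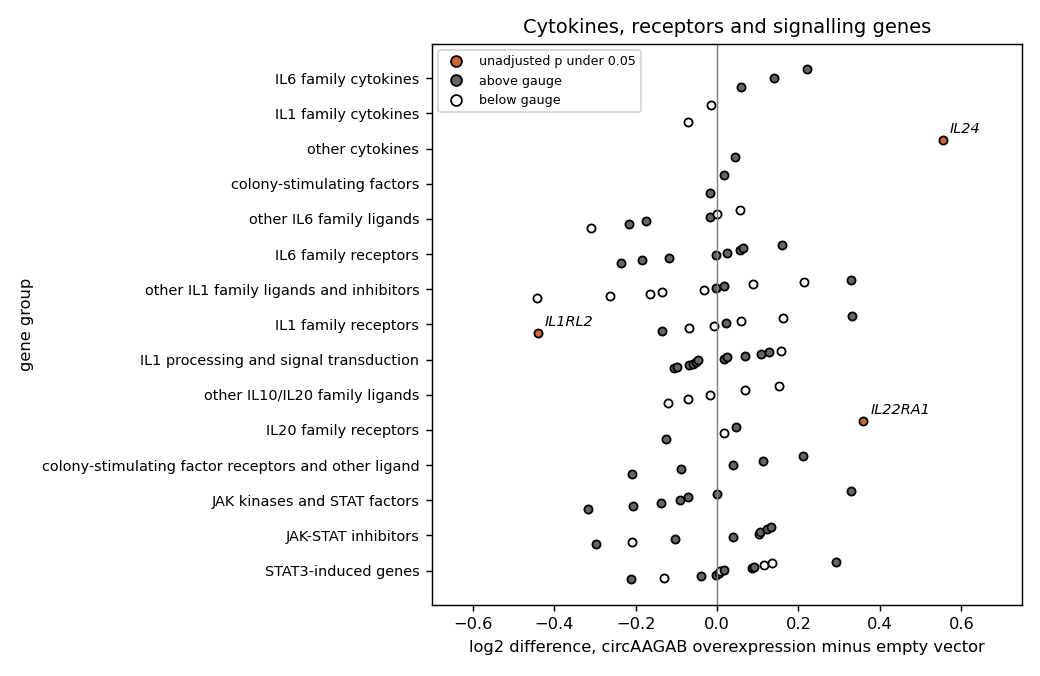
Difference between the groups (log2, *circAAGAB* overexpression minus empty vector) for the 9 cytokine genes and the 85 measured ligands, receptors and signalling genes, 1 point a gene, by gene group; orange points had an unadjusted p under 0.05 (limma), white points lay below the gauge. *IL24* at 0.55, *IL22RA1* at 0.36 and *IL1RL2* at -0.44 are the 3 orange points.

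The genes whose pattern over the 6 arrays was most like that of a cytokine were looked up, for the 7 cytokines above the gauge, among 12458 other named genes above the gauge. For *IL24* these were *RPL30*, *COPS8* and *RPP38*, each with a Pearson correlation of 0.98 over 6 arrays. For *IL6* they were *IFT25*, *TCEAL8* and *MINPP1*, and for *IL11* *KLF2*, *NXNL1* and *ABHD15*, all at 0.99 or above. For *LIF* they were *MTTP*, *GPR26* and *PRDM13*, all at 0.98, and for *IL32* *SYS1-DBNDD2*, *ZNHIT2* and *TBXA2R*, the first at 1.00 and the others at 0.99. For *CSF1* they were *CYB5D2*, *NAB1* and *NHS* at 0.99, 0.99 and 0.97, and for *CSF3* *LSM12*, *NKD2* and *TMEM9* at 1.00, 1.00 and 0.99. Each is the highest of many correlations over few arrays that also share the replicate number, and is given as a description. A correlation does not compare the size of differences. *RPL30*, *COPS8* and *RPP38* differed between the groups by 0.11, 0.16 and 0.27, against 0.55 for *IL24*.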

How the data were processed

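The deposited table holds log2 values of 21448 probe sets on 6 Clariom S arrays, hybridised with biotin-labelled cDNA. The authors made these values by robust multichip averaging; the submitters' processing notes name RMA too, with the software version not given in the sources used here. Because RMA makes array distributions alike, a shift of the whole transcriptome would not show. Of the probe sets, 17709 had 1 symbol, updated through the GRCh38.p14 gene table, and 3739 were unnamed here.

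The comparison of groups used lmFit and eBayes of limma (version 3.58.1, under R version 4.3.3) without covariates. The p-values were two-sided and adjusted by Benjamini-Hochberg over all 21448 probe sets. The fit was also run on simulated arrays with known changes. These were drawn independently, without the spread by replicate number seen here, so that run does not show how the fit behaves on these data. The deviations of same-numbered arrays from their group means correlated at 0.603, 0.189 and 0.549. Correlations of differently numbered arrays are not given here, so these values do not show that the numbers pair the arrays. The number was taken as a possible pairing, and the number as a block is an alternative. Others were the methods' test, a variance trend, quantile normalization, a filter at the gauge, averaged probe sets and leaving out arrays. Named genes were all members, list genes with an unadjusted p under 0.05, the largest difference above the gauge in each gene group, and the 3 genes most like each member above the gauge. Other list genes, the neighbours of *IL24* and the markers that did not overlap were named for their role or for non-overlap, after their values were seen. The members and lists were chosen with earlier results of these data known. The number of arrays limits the precision.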

Additional observations from a re-analysis of the deposited data

How the results depend on the processing

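Over 13 alternatives no cytokine gene had an adjusted p under 0.05 (lowest 0.586), and no listed gene passed either. *IL24* and *IL6* kept their direction in all 13, *IL24* between 0.431 and 0.63 (unadjusted p 0.00334 to 0.0427, limma or the methods' test) and *IL6* between 0.128 and 0.375. The block, the methods' test, the variance trend, the filter at the gauge and averaged probe sets leave these differences as they were. A direction could therefore change only with quantile normalization or with arrays left out. With the replicate number as a block, which changed no call, the adjusted p of *IL24* was 0.724. With all arrays, 0 cytokine genes had a 1.5-fold change and an unadjusted p under 0.05. The count was 0 to 1 when leaving out 1 array and 1 when both arrays of replicate number 1 were dropped. That gene was *IL24*. Of all probe sets, 0.373% passed both with all arrays. The share in the settings with fewer arrays is not given here, so these counts have no background beside them.

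Of 115 values of single genes, 16 changed sign, all of genes with a difference within 0.15 of 0. The 115 include the values of settings that leave the difference as it was and could not change its sign. The share that changed is therefore understated. Leaving out 1 array gave -0.1 to 0.211 for *IL11*, -0.244 to 0.12 for *IL1A*, -0.166 to 0.1 for *IL1B*, -0.113 to 0.235 for *IL32*, -0.0495 to 0.0693 for *CSF1* and -0.153 to 0.106 for *CSF3*. Quantile normalization gave 0.00222 for *IL1B* and -0.00105 for *CSF1*, and dropping both arrays of replicate 1 gave -0.00709 for *LIF*. Where an array was left out, its group kept only a pair of arrays. *IL1A* and *IL1B* left the test under the filter at the gauge.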
